A study of Mus musculus with 13 samples.

Results

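The comparison of destabilisation of the medial meniscus (DMM) with sham surgery in wild-type mouse knee cartilage was taken as every region that the authors listed for these groups, 43378 of the 181833 regions in the 3 deposited comparisons. Both groups were male TET1+/+ (wild-type) mice, strain B6;129S4, and cartilage was dissected from the knee 6 weeks after surgery. DMM is an operation on the meniscus that makes the knee unstable and leads to osteoarthritis-like wear, and the protocol here describes taking out the medial meniscus. In sham knees the joint was opened and nothing else was done, and the protocol puts each control on the opposite leg, so sham and DMM knees may share an animal. The labels differ on age: the design text says 3 to 4 months, the protocol 4 to 6. Each group held 3 libraries, which the design text calls biological replicates without saying that each is a separate animal. Libraries are named here by their place in the deposited cell (DMM libraries 1 to 3, sham libraries 1 to 3).

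The mark measured was 5-hydroxymethylcytosine (5hmC). TET enzymes make it by oxidising 5-methylcytosine, which can be an intermediate of DNA demethylation or a stable mark. In many tissues it lies in the bodies of transcribed genes and at enhancers, and is scarce at unmethylated CpG island promoters. Articular cartilage holds mostly chondrocytes, which build a matrix of type II collagen and aggrecan under the control of SOX9. In osteoarthritis some chondrocytes take on a hypertrophic program with RUNX2 and MEF2 factors, and Wnt, hedgehog and TGF-beta signals shape that balance. The assay reads 5hmC only in CCGG, the site that the enzyme MspI cuts, and each listed region is a run of windows of 200 bases around such sites. A level below is the deposited normalized count of the region in a library, and a fold is a ratio of group means of these levels.

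The sites the assay reads can be seen in promoter windows that called regions overlap. The sequences below are the 250 bases before the start, from RefSeq (GRCm38.p6, the same coordinates as mm10), with CCGG in capitals. They were chosen from the windows whose regions held the most reads, 3 with a region higher after DMM (Slc24a3, Gpbp1l1 and Polr3f) and 3 with a lower one (Amd1, Amd2 and Cadm4). They lie at chr2:145242361-145242610 (plus strand), chr4:116557829-116558078 (plus), chr2:144527495-144527744 (plus), chr10:40302189-40302438 (minus), chr10:35711892-35712141 (minus) and chr7:24481773-24482022 (plus).
Slc24a3: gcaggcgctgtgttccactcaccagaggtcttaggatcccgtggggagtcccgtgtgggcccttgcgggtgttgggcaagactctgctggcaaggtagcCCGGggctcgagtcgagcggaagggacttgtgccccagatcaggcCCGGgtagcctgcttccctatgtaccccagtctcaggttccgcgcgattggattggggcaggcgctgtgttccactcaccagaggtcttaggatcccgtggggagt
Gpbp1l1: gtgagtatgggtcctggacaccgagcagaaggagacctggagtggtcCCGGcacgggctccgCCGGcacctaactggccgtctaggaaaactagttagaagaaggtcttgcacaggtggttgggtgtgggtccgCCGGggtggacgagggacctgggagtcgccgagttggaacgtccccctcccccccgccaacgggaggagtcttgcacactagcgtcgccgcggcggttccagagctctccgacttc
Polr3f: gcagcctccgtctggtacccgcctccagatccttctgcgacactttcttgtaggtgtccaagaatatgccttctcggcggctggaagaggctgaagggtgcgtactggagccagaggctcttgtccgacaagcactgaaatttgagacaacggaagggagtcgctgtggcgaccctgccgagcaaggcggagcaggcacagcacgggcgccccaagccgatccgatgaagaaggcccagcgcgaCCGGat
Amd1: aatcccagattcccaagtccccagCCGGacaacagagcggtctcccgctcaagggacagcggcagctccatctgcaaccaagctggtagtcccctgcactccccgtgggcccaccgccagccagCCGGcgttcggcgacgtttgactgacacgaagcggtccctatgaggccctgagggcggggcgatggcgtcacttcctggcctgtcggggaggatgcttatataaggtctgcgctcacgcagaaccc
Amd2: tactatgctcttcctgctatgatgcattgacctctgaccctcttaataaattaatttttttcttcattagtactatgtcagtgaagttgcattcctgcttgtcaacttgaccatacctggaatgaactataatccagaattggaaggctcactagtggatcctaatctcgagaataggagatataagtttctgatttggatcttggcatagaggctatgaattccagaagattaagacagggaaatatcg
Cadm4: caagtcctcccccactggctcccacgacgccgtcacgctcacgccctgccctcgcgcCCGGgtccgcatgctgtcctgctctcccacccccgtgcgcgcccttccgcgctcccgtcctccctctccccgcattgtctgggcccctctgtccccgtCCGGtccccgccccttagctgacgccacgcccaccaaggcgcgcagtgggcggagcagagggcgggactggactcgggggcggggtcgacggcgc
The printed stretches of Gpbp1l1, Slc24a3, Amd1 and Cadm4 held 3, 2, 2 and 2 CCGG, that of Polr3f held 1 and that of Amd2 held 0. The marked CCGG of Gpbp1l1, Polr3f and Cadm4 lie inside the called region. Those of Slc24a3 and Amd1 lie outside it, beyond region ends at 145242440 and 40302260. Whether reads from these outside sites entered the calls was not tested. CCGG reads the same on both strands. Over all 32851 RefSeq windows from 250 bases before to 50 after a start, 52.8% held at least 1.

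The libraries differed widely in depth, and 2 stood apart. In the listed regions, DMM library 1 held 4726 reads, against 436852 and 925241 in the other DMM libraries and 563233 to 2187392 in sham. A single read of DMM library 1 was worth 15.7 normalized counts, against 0.171 to 1.33 in the other 5, and 95.8% of listed regions had no read in it. In single regions below, a value of 31.4 in DMM library 1 is 2 reads. Sham library 3 had 0.564% of its signal on chromosome Y, where the other sham libraries had 1.21% and 1.04%, and 8.92% on chromosome X, against 5.75% and 4.59%. It was the lowest of the sham libraries at 188 of 228 Y regions. It was also the lowest of them at the median higher region on the autosomes, at 2.05 against 2.88 and 3.58. On X it was the highest at only 268 of 904 regions, with a median of 5.47 against 6.09 and 6.44. In the deposited comparison of mutant DMM with the same sham libraries it was lowest at 1788 of 2100 Y regions, with a median of 0.55 against 25.98 and 22. There it was the highest at 1231 of 2688 X regions, with a median of 11.93 against 9.54 and 11.58. The Y values of that comparison go against the label of male mice for this library. Results are therefore given with and without DMM library 1, and those on X and Y also without sham library 3. The intervals below are exact binomial intervals that treat regions as independent. They cover counting error only and not the spread between libraries. PCR reads carried no molecular identifiers.

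Regions with more 5hmC after DMM were many and low, and those with less were few and high. A region is called here where the authors' deposited adjusted p was under 0.05, which held for 43240 of the 43378 listed regions (99.7%). Of the listed regions, 40407 (93.2%) were called higher after DMM and 2833 (6.53%) lower. The listing rests on the same libraries, so these shares describe the list. At the median higher region the sham libraries stood at 2.88, 3.58 and 2.05 normalized counts and the DMM libraries at 0, 8.0 and 15.6. At the median lower region the sham libraries stood at 69.5, 56.5 and 62.4 and the DMM libraries at 0, 54.7 and 38.5. The lower calls held a median of 734 reads over the 6 libraries and the higher calls 46.0.

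Whether the groups overlapped turned on DMM library 1 for the higher calls and much less for the lower ones. With all 6 libraries, every DMM library lay above every sham library in 431 of the 40407 higher calls (1.07%) and below in 741 of the 2833 lower calls (26.2%). Without DMM library 1 these counts were 34465 (85.3%) and 877 (31%). Leaving out sham library 3 as well gave 34539 (85.5%) and 993 (35.1%). DMM library 1 had no read in 97.5% of higher and 72.1% of lower calls, and at least 1 read in only 1010 and 791. A library without a read cannot lie above sham, and it lies below every sham library that holds reads. The counts with all 6 libraries are thus largely set by its missing reads. All 40407 higher calls kept their direction of means without DMM library 1, and 239 lower calls turned. Leaving out a value of 0 can only raise the DMM mean, so higher calls without a read in that library could not turn. DMM libraries 2 and 3 did not weigh the same: DMM library 3 alone lay above the sham mean in 40403 of the higher calls and DMM library 2 alone in 37096. Without DMM library 3, 27990 called regions had the higher mean after DMM and 15228 the lower. For the lower calls, DMM library 3 alone lay below the sham mean in 2507 and DMM library 2 alone in 1789.

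All listed regions were also tested with limma on log2(normalized count + 1), with Benjamini-Hochberg adjustment over all of them. With all 6 libraries 0 regions passed an adjusted p of 0.05 in the higher direction (4 at an unadjusted p under 0.05) and 7 in the lower (357 unadjusted). Without DMM library 1 there were 32922 higher and 811 lower. Without DMM library 1 and sham library 3 the counts were 0 and 0, with 22983 higher and 576 lower at an unadjusted p under 0.05. The regions had already been chosen on these libraries, so these counts are no independent check.

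Direction followed level. Where the mean over the 5 libraries other than DMM library 1 was 4 to 10 normalized counts, 19 of 33474 called regions were lower (0.0568%). The share was 3.97% at 10 to 20, 30.2% at 20 to 40, 76.0% at 40 to 80 and 86.7% at 80 and over. Over all called regions, those with a high level were thus mostly lower after DMM, and those with a low level almost all higher. Without DMM library 1 the means were lower after DMM in 70.4% of regions at 40 to 80 and 68.9% at 80 and over. In the bands below 40 the shares were the same without it. Among regions that separated the groups without DMM library 1, 16.5% were lower at 20 to 40 and 40.9% of 580 at 40 to 80. Of the 358 such regions at 80 and over, 71.2% were lower, so only that band was mostly lower in this set. The part of the authors' listing test in this order was not tested.

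**Figure D1:**
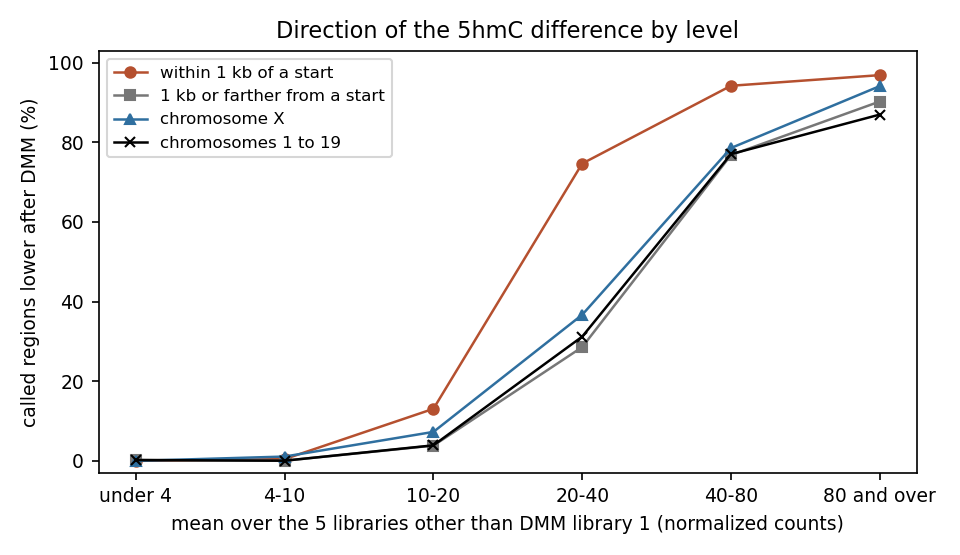
Share of called regions that were lower after DMM (y axis, percent) by the mean normalized count over the 5 libraries other than DMM library 1 (x axis), for regions within 1 kb of a RefSeq start, farther regions, chromosome X and chromosomes 1 to 19. All lines climb from near 0 to at least 87.0%, and regions near starts reach 74.7% at 20 to 40 normalized counts, where farther regions reach 28.6%.

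Chromosome X stood apart from every autosome. Of the called regions on chromosomes 1 to 19, 6.21% were lower after DMM (exact 95% interval 5.98 to 6.44), from 4.2% on chromosome 3 to 8.99% on chromosome 11. On chromosome X, 198 were lower and 702 higher, so that 22% were lower (19.3 to 24.9). Among regions that separated the groups without DMM library 1, the share lower was 15.8% on X and 2.22% on the autosomes, and without sham library 3 as well it was 15.9% and 2.52%. X held few higher calls, 4.13 per Mb against 14.4 to 19.2 on the autosomes, while its 1.16 lower calls per Mb lay within the autosomal range of 0.675 to 1.48. X regions also had higher levels: 24.1% of its called regions had a sham mean of 20 or more, against 7.76% on the autosomes. At 20 to 40 normalized counts, 36.7% of X regions and 31.2% of autosomal regions were lower, and at 40 to 80 the shares were 78.6% and 77.0%. The levels differed more elsewhere, with 7.28% and 3.91% at 10 to 20 and 94.1% and 87.0% at 80 and over (85.9% and 67.6% without DMM library 1). Among regions at 40 to 80 that separated the groups without DMM library 1, 71.1% of 38 on X and 40.1% of 519 on the autosomes were lower.

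The single libraries give the X result its limits. At the median lower region on X the sham libraries stood at 77.4, 49.7 and 105 normalized counts and the DMM libraries at 31.4, 39.4 and 30.7. All DMM libraries lay below all sham libraries at these medians, DMM library 1 included, and sham library 3 was the highest. On the autosomes the DMM medians also lay below all sham medians, at 0, 56.03 and 38.5 against 69.2, 56.5 and 61.01. Lower calls were chosen by their group means, so this order is largely set by that choice and is not particular to X. Of the 198 lower calls on X, 92 separated all 6 libraries and 113 did so without DMM library 1 (46.5% and 57.1%). On the autosomes these shares of lower calls were 24.8% and 29.2%. Over all listed regions, X took 11.7% of the signal in DMM library 1 and 3.72% and 3.32% in DMM libraries 2 and 3. The mean without DMM library 1 was 3.52% ± 0.283 (SD, n = 2) for DMM, set against 6.42% ± 2.24 (n = 3) for sham. The exact two-sided permutation p of 0.2 was the smallest this test can give, and with all 6 libraries the p was 1.0. Without sham library 3 as well, sham stood at 5.17% ± 0.823 (n = 2), which reduced the difference from -2.90 to -1.65 percentage points (exact permutation p 0.333, the smallest possible there). Phex, a gene on X whose loss impairs bone mineral, stood at 47.03, 32.02 and 41.7 after DMM and 76.6, 52.9 and 110 in sham, and all libraries separated. Fgf13, an intracellular FGF homologue, had a lower region 376 bases from a start, with 31.4, 13.3 and 13.5 after DMM and 18.6, 26.5 and 70.4 in sham, where DMM library 1 overlapped sham. Whether the makeup of sham library 3 moves these X values beyond what its removal shows was not tested.

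Chromosome Y held 204 higher and 21 lower calls. It was the chromosome where DMM library 1 had reads most often, in 28.4% of the higher calls against 2.29% on the autosomes. All 6 libraries separated at 40 of its 204 higher calls (19.6%), against 0.942% of higher calls on the autosomes. Lower calls were 9.33% of all called Y regions, 2.62% of those separated without DMM library 1, and 6.53% of those separated without sham library 3 as well. At the median higher Y region the DMM libraries stood at 0, 13.3 and 28.1 normalized counts and the sham libraries at 6.41, 7.15 and 2.22. The best-read higher region on Y had 94.05, 92.05 and 114 after DMM and 89.05, 52.9 and 1.71 in sham, so that sham library 1 nearly reached the DMM libraries. As background, much of Y is repeated sequence, where reads can be shared between copies.

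**Figure D2:**
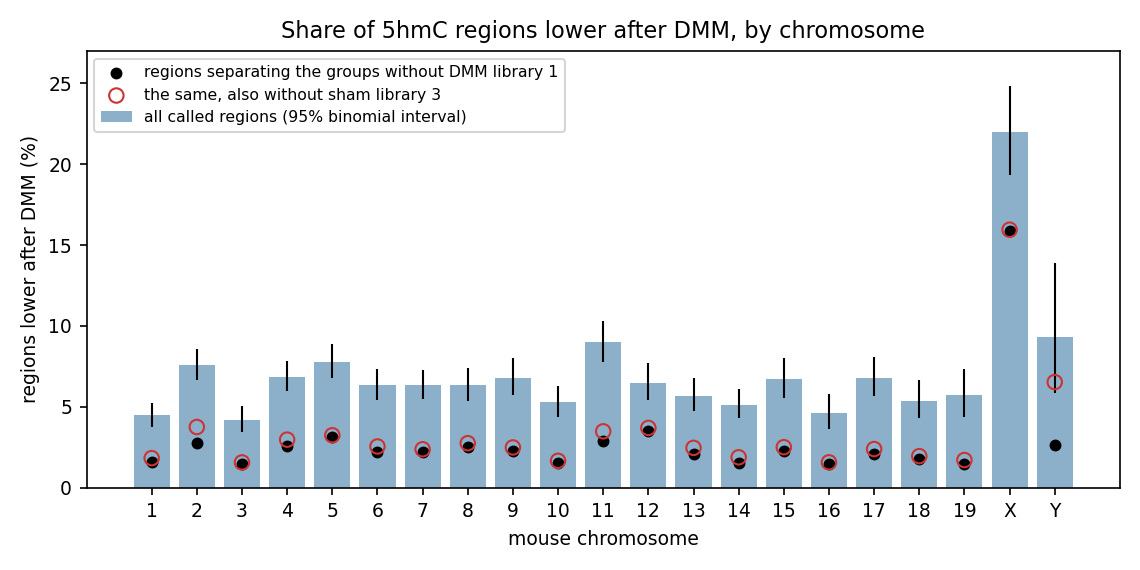
Share of called regions lower after DMM (y axis, percent) on each mouse chromosome (x axis). Bars show all called regions with exact 95% binomial intervals, black points the regions that separate the groups without DMM library 1, and open circles those that also leave out sham library 3. Chromosome X reaches 22%, and the autosomes lie between 4.2% and 8.99%.

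In bins of 5 Mb, the most higher calls lay on chromosome 7 at 20 to 25 Mb (327, against a median of 74.0 per bin), chromosome 14 at 5 to 10 Mb (251), chromosome 8 at 20 to 25 Mb (250) and chromosome 14 at 40 to 45 Mb (220). On chromosome 14 the genes with most of them were predicted genes such as Gm3629 (11 regions) and Gm21154 (19), and on chromosome 8 Gm21119 (14). Such genes have similar copies nearby, so the position of their reads is uncertain. These bins held 144 protein-coding genes on chromosome 7, 58 and 62 on chromosome 14 and 82 on chromosome 8. Fhit, a long gene over a fragile site, held 7 of those on chromosome 14. On chromosome 7 only 9.17% of the 327 lay in a gene body.

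The bins with the most lower calls held 46 to 131 protein-coding genes. They lay on chromosome 2 at 155 to 160 Mb (27) and 165 to 170 Mb (23), on chromosome 10 at 80 to 85 Mb (22) and on chromosome 11 at 115 to 120 Mb (22), against a median of 4.00 per bin. Between 81.8% and 88.9% of these lay in gene bodies in 3 of the bins and 73.9% in the bin at 165 to 170 Mb. The bin at 155 to 160 Mb included a, the agouti gene of coat colour, with 4 lower regions, and Ctnnbl1, a splicing factor, with 3. Its lower regions had medians of 0, 5.34 and 8.33 after DMM but 58.9, 35.8 and 9.40 in sham, so sham library 3 sat beside the DMM libraries there. In the other 3 bins sham library 3 stood with the other sham libraries, from 59.0 to 66.0. DMM library 2 was level with sham or above it in these 3 bins, at 57.4 against 61.2, 53.7 and 59.0 in the bin at 165 to 170 Mb, for example, while DMM library 1 was at 0 and DMM library 3 at 33.3. Of the lower calls in the 3 bins, 8 of 23, 3 of 22 and 5 of 22 separated the groups without DMM library 1. The bin at 165 to 170 Mb held 3 lower regions of Nfatc2 and 2 of Sulf2, a sulfatase that trims heparan sulfate. Over 501 autosomal bins, the Spearman correlation of protein-coding genes with calls was 0.567 for lower and 0.278 for higher calls, as a description, since bins differ in CCGG content and neighbours are not independent. The share lower was 4.32% and 3.97% in the bins with 1 to 16 and 17 to 31 genes, 6.33% with 32 to 55 and 9.34% with 56 to 216.

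Near gene starts the balance moved toward less 5hmC after DMM. Within 250 bases of a RefSeq start 33.9% of called regions were lower (121 lower and 236 higher), from 250 to 500 bases 26.6%, from 500 to 1000 bases 19.5%, and beyond 100 kb 4.83%. Among regions that separated the groups without DMM library 1, the share was 17.4% within 250 bases and 2.40% beyond 100 kb. The difference was also seen at like levels: at a mean of 20 to 40 normalized counts 74.7% of 150 regions within 1 kb of a start were lower, against 28.6% of 1788 farther away, and at 10 to 20 the shares were 13.1% and 3.84%. Both pairs were the same without DMM library 1, but at 80 and over the order then turned, with 62.5% of 32 regions near starts lower against 71.3% of 677 farther away. With that library these shares were 96.9% and 90.3%. Distances were taken where the RefSeq start table was well filled, which covered 38108 called regions.

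**Figure D3:**
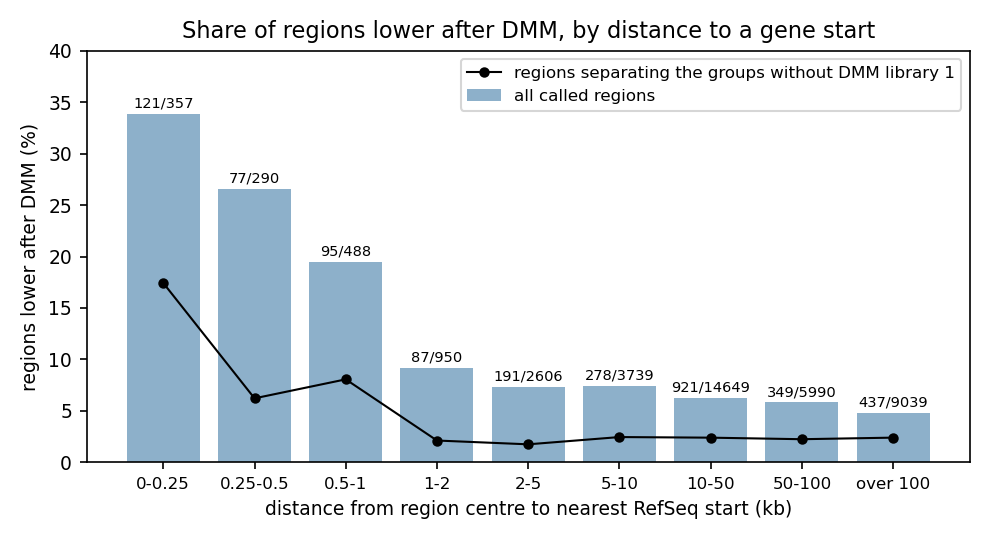
Share of called regions lower after DMM (y axis, percent) by the distance from the region's centre to the nearest RefSeq start (x axis, kb), with the number lower and the number called above each bar. The bars go from 33.9% within 250 bases to 4.83% beyond 100 kb, and the line shows the same share among regions that separate the groups without DMM library 1.

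Promoter windows showed the same lean. A higher call overlapped 294 of the 32851 windows (0.895%) and a lower call 135 (0.411%), from 266 higher and 113 lower regions, so 29.8% of regions at promoters were lower. Of the windows with a lower region 93.3% held a CCGG and of those with a higher region 63.3%. The median lower promoter region stood at 46.5 in sham and 22.9 after DMM, and the median higher one at 3.04 and 8.27. All 6 libraries separated at 28 of the 113 lower and 6 of the 266 higher regions, and without DMM library 1 the libraries separated at 35 and 224. Over all calls the shares were 26.2% of lower and 1.07% of higher regions with all 6 libraries and 31% and 85.3% without DMM library 1.

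Among the higher promoter regions, that of Slc24a3, a sodium, potassium and calcium exchanger, had 31.4, 113 and 72.9 normalized counts after DMM and 51.6, 42.9 and 50.9 in sham. DMM library 1 lay below sham there, and the mean without it was 1.92-fold that of sham. At Gpbp1l1, a GC-box binding protein homologue, the values were 31.4, 73.4 and 36.4 against 26.6, 31.5 and 31.96, with DMM library 1 inside the sham range. Polr3f, a subunit of RNA polymerase III, had 31.4, 50.7 and 38.5 against 24.4, 25.8 and 26.3, and its libraries did not overlap. DMM library 1 held 2 reads at this region. The limma difference at Polr3f without DMM library 1 was 0.77 (SE 0.39) on the log2 scale with an adjusted p of 0.0860.

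Among the lower promoter regions, Amd1, which encodes the S-adenosylmethionine decarboxylase of polyamine synthesis, had 62.7, 111 and 64.6 after DMM and 201, 116 and 170 in sham. Its fold was 2.05 in favour of sham (1.85 without DMM library 1), and limma gave an adjusted p of 0.0232 without DMM library 1 and 1.0 with it. Amd2, a copy of Amd1 whose upstream sequence above holds no CCGG but whose window holds 1 in the 50 bases after the start, had nearly the same values, 62.7, 100 and 60.4 against 192, 106 and 158. The pseudogenes Amd-ps3 and Amd-ps4 did too, so these 4 regions may be reads of 1 locus and are uncertain as separate results. Cadm4, a cell adhesion molecule, had 31.4, 60.03 and 28.1 upstream of its start against 127, 60.1 and 88.5, and DMM library 2 nearly touched sham library 2.

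Of the regions in which all 6 libraries separated, 45.5% of the higher and 51.6% of the lower ones lay in gene bodies. Of the 12 best-read higher ones, 4 lay in gene bodies, in Lpin1, Gm17501, Gm32742 and Slc7a7. Lpin1, a phosphatidate phosphatase of lipid synthesis, had 62.7, 77.4 and 70.8 after DMM and 47.1, 43.6 and 51.1 in sham, a fold of 1.49. Slc7a7, a cationic amino acid transporter, had 94.05, 81.4 and 106 against 55.4, 52.9 and 12.99. The best-read higher one, on chromosome 3 at 158736101 to 158736340, had 125, 347 and 237 against 65.4, 110 and 92.1, a fold of 2.65. Its limma log2 difference without DMM library 1 was 1.71 (SE 0.26, adjusted p 0.0187), and with all 6 libraries the adjusted p was 0.99994. Of the 12 best-read lower ones, 3 lay in gene bodies, in Gm40237, Gm2101 and the immunoglobulin heavy chain locus Igh. At Gm40237, a predicted gene, sham library 1 stood at 2431, the other sham libraries at 216 and 255, and the DMM libraries at 0, 159 and 158. Sham library 1 carried most of that fold, though the other sham libraries also lay above all DMM libraries, and limma gave an adjusted p of 3.69e-07 with all 6 libraries and 0.0622 without DMM library 1. The lower region on chromosome 1 at 85057281 to 85058080 was lower in every DMM library too, with 219, 295 and 385 after DMM and 828, 477 and 779 in sham, and passed limma with all 6 libraries (log2 difference -1.21, SE 0.19, adjusted p 6.63e-06). The one on chromosome 8 at 44234021 to 44234600 passed as well, with 251, 176 and 302 against 757, 381 and 710 (limma adjusted p 8.98e-05).

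Few genes held more than 1 region that separated all 6 libraries. In the higher direction Gm46751, Gm5622, Inpp5d and Itprid2 held 2 each and the other genes 1 at most. Inpp5d encodes SHIP1, a phosphatase of blood cells, and Gm46751 lies inside Itprid2, so they share regions. In the lower direction Ahnak2, a giant scaffold protein, held 5 of its 6 lower regions and Igh 5 of 8, beside 46 higher calls at Igh, a locus rearranged in B cells. Alk, a receptor kinase, Arhgap45 and Arhgef28 held 2 each, as did further genes, among them Atp9a and Cpne5.

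**Figure D4:**
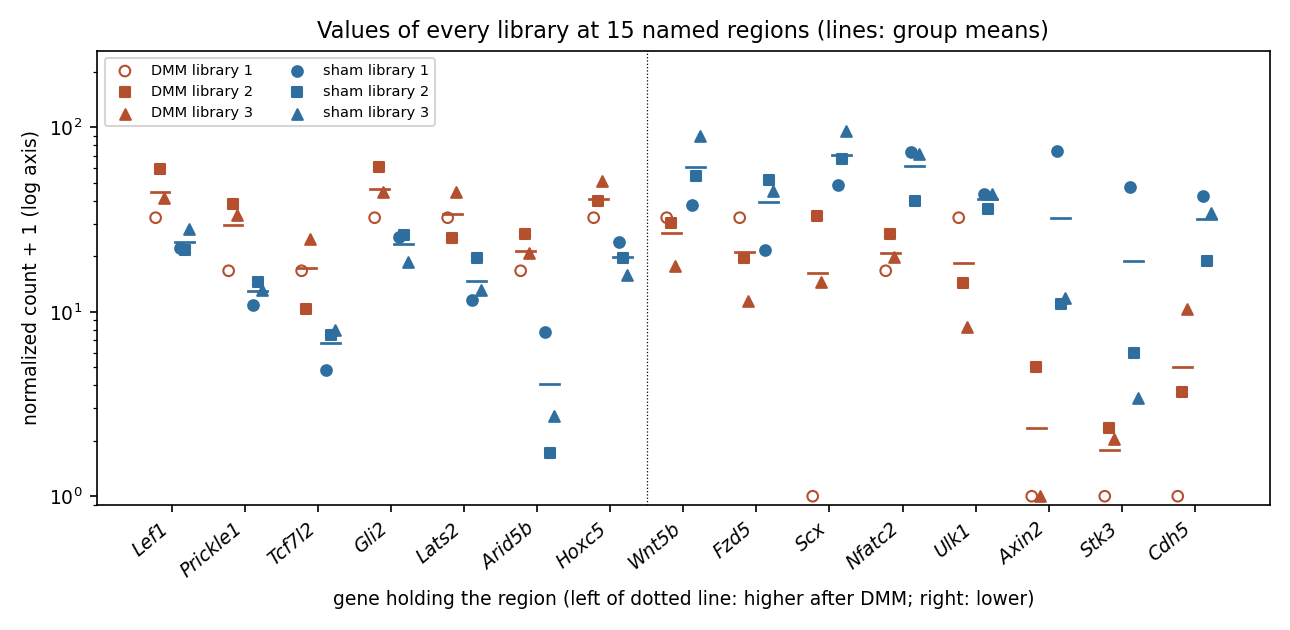
Normalized counts plus 1 (y axis, log scale) of every library at 15 named regions (x axis), 7 higher after DMM on the left and 8 lower on the right. Open circles are DMM library 1, filled symbols the other libraries, and short lines the group means. Sham library 1 stands far above the other sham libraries at Axin2 and Stk3.

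The gene lists were read against all 21887 protein-coding genes, of which 32.6% held a higher call in the body and 5.89% a lower call. With regions that separated the groups without DMM library 1 these shares were 30% and 1.61%, and with regions that separated all 6 libraries 0.731% and 1.35%. Both shares were larger in longer genes: a higher call lay in 6.90% of genes under 10 kb and 88.9% of those of 100 kb and more, and a lower call in 2.35% and 16.6%. A list of long genes is thus likely to hold more calls, and the median gene length is given where it matters. Over the 32 lists, 280 of 696 genes held a higher call and 91 a lower call. The median log2 difference of a called region was 1.13 over all regions and lay between 0.95 and 1.21 in every list but 1, the Wnt ligands at -0.71. The Wnt ligands held only 3 higher and 6 lower regions, and these medians include DMM library 1.

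**Figure D5:**
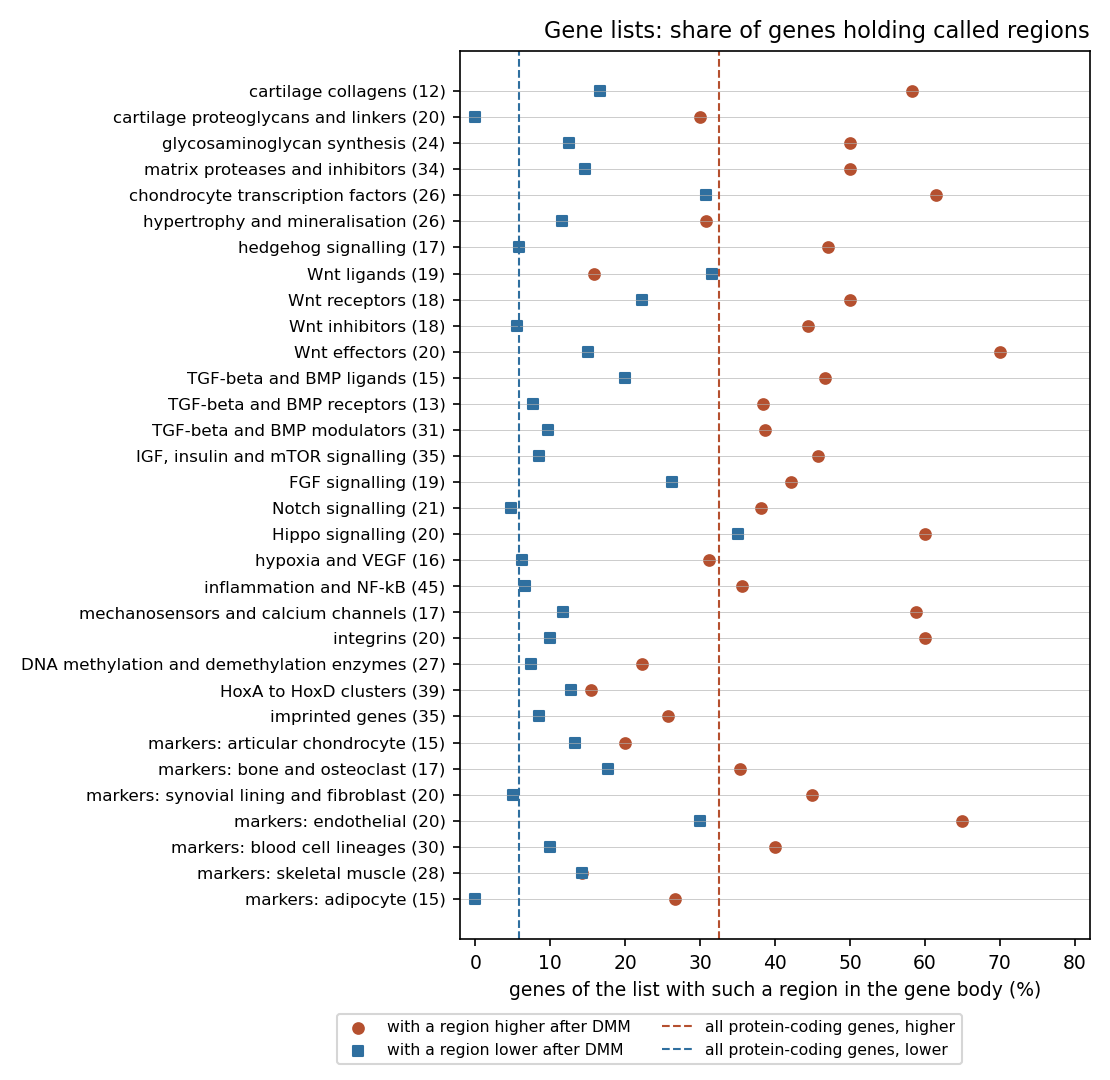
Percent of the genes of each list (y axis, number of genes in brackets) that held a called region higher (circles) or lower (squares) after DMM in the gene body (x axis). Dashed lines mark all protein-coding genes, 32.6% higher and 5.89% lower, and Wnt ligands are a list where the square lies to the right of the circle.

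Matrix genes held higher calls at low levels. Of 12 cartilage collagen genes, 7 held a higher call and 2, Col2a1 and Col11a2, a lower call. The region of Col9a1, a chain of the collagen on the surface of type II fibrils, had 0, 16.01 and 9.37 after DMM and 1.28, 2.86 and 2.39 in sham. Col6a1, of the collagen around each chondrocyte, had 0, 8.0 and 14.6 against 2.24, 2.86 and 2.05. DMM libraries 2 and 3 lay above all sham libraries at both, while DMM library 1 had no read. Regions were named by that separation, which 85.3% of all higher calls showed.

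Of the 20 cartilage proteoglycan and linker genes, 6 held a higher call and 0 a lower call, and Acan, Comp, Prg4 and Matn3 held no call. Epyc, a small leucine-rich proteoglycan of growth cartilage, had 0, 18.7 and 21.9 against 7.05, 7.87 and 6.84. Hapln1, the link protein that ties aggrecan to hyaluronan, had 0, 5.34 and 13.5 against 1.28, 3.58 and 2.56. The higher level of Cilp, a matrix protein of the middle cartilage layer, rested on DMM library 3 (19.8), since DMM library 2 (5.34) was close to sham (2.22 to 3.58). Dcn, the collagen-binding proteoglycan decorin, had 0, 8.0 and 17.7 against 3.20, 4.29 and 2.05.

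Glycosaminoglycan enzymes, which build the sugar chains of proteoglycans, held higher calls in 12 of 24 genes and lower calls in 3 (Xylt2, Csgalnact1 and Ndst1). Chst11, a chondroitin sulfotransferase needed in cartilage, had 0, 20.01 and 29.2 after DMM and 7.05, 10.01 and 9.74 in sham. Papss2, which makes the sulfate donor, had 0, 14.7 and 27.1 against 3.84, 4.29 and 3.25, or 5.50-fold without DMM library 1. Ndst1, a heparan sulfate sulfotransferase, held 4 lower regions and 1 higher one. Its best-read lower region had 0, 24.01 and 8.33 against 25.3, 42.9 and 83.1, with sham library 1 just above DMM library 2.

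Among 34 genes of matrix proteases and their inhibitors, 17 held a higher and 5 a lower call, at a median gene length of 46.1 kb. Adamtsl1, which resembles ADAMTS proteases without their activity, held 24 higher regions and Adam12, a membrane protease, 8. The region of Adam12 had 0, 24.01 and 45.8 after DMM and 5.77, 12.9 and 4.44 in sham. Htra1, a serine protease raised in arthritic joints, had 0, 28.02 and 28.1 against 12.5, 12.9 and 8.03. Adamts12, a metalloprotease that cleaves COMP, had a well-read lower region in which all libraries separated, 125, 119 and 67.7 against 170, 134 and 242. Its limma adjusted p was 0.0198 without DMM library 1 and 0.99994 with all 6 libraries. The aggrecanases Adamts4 and Adamts5 and the collagenase Mmp13 held no call.

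Chondrocyte transcription factors held calls in both directions, higher in 16 and lower in 8 of 26 genes, at a median length of 88.3 kb. Arid5b, a partner of SOX9 at chondrocyte genes, had the largest fold of the 4 named regions of this list, with 15.7, 25.4 and 19.8 after DMM against 6.73, 0.72 and 1.71 in sham. Its fold was 6.64, and 7.39 without DMM library 1, and DMM library 1 rested on 1 read. Trps1, a GATA-type repressor of growth cartilage, had 0, 48.03 and 66.6 against 27.9, 25.04 and 23.9, and without DMM library 3 its log2 difference of means was -0.089.

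Scx and Nfatc2 were the factors whose lower regions separated all libraries. At Scx, the tendon factor scleraxis, whose region also lies in Bop1, the values were 0, 32.02 and 13.5 against 47.4, 66.5 and 94.8. Nfatc2, a calcium-controlled factor studied in joint degeneration, had 15.7, 25.4 and 18.7 against 72.1, 38.6 and 70.4, a fold of 3.03 in favour of sham. The limma adjusted p was 0.0192 without DMM library 1 and 0.99994 with all 6 libraries. Nfatc2 also held 3 higher regions. Sox9 held no call, and Sox5 and Sox6 held higher calls only.

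The hypertrophy list held higher calls in 8 and lower calls in 3 of 26 genes, close to all genes for higher calls. Runx2, which drives hypertrophy, had 0, 37.4 and 46.9 after DMM and 12.2, 16.5 and 17.1 in sham at its best-read region. Mef2a, a factor of the same program, had 0, 40.02 and 32.3 against 12.5, 14.3 and 11.3. In both, DMM libraries 2 and 3 lay above all sham libraries, as the rule for naming regions asked. Mef2d went the other way at a region 168 bases from a start, with 31.4, 18.7 and 12.5 against 26.9, 37.2 and 59.1, where DMM library 1 overlapped sham. Hdac4, which holds MEF2 factors in check, had 0, 5.34 and 19.8 against 2.88, 3.58 and 3.08 and rested on DMM library 3.

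Hedgehog genes held higher calls in 8 of 17 and a lower call in 1 (Ptch1). Gli2, a transcription factor of the pathway, had 31.4, 60.03 and 43.7 after DMM and 24.4, 25.04 and 17.6 in sham, 3219 bases from a start. All 6 libraries separated there, with a fold of 2.02, and DMM library 1 rested on 2 reads. The limma log2 difference without DMM library 1 was 1.18 (SE 0.41, adjusted p 0.0249), and with all 6 libraries the adjusted p was 0.99994. Smo, the receptor that passes the signal on, had 0, 17.3 and 12.5 against 2.56, 5.72 and 3.08. Boc, a co-receptor, was well read, with 94.05, 128 and 143 against 87.5, 95.9 and 91.1, and DMM library 1 lay inside the sham range. Ihh, the ligand made by cartilage, held no call.

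In the Wnt pathway the order by role was uneven. Of 19 ligand genes, 3 held a higher and 6 a lower call (15.8% and 31.6%), at a median length of 22.9 kb. The receptors held 9 and 4 of 18, the inhibitors 8 and 1 of 18, and the intracellular effectors 14 and 3 of 20, whose median length was 96.0 kb. The difference between ligands and effectors was not tested, and no call is particular to either list on these counts. Only 2 of the 6 ligands with a lower call, Wnt5b and Wnt8a, kept a region that separated the groups without DMM library 1.

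Among the ligands, Wnt5b, a non-canonical Wnt of growth cartilage, had a lower region at chr6:119543841-119544080 (its centre 387 bases from a start) with 31.4, 29.4 and 16.7 after DMM and 36.8, 53.7 and 88.9 in sham. All libraries separated, and the fold in favour of sham was 2.32, with 2.60 without DMM library 1 (limma adjusted p 0.0263). With all 6 libraries the limma adjusted p was 0.99994. Wnt8a separated too, with 0, 86.7 and 68.7 against 87.1, 88.7 and 87.8, but without DMM library 1 the fold was 1.13 and the limma adjusted p 0.521. Wnt2 and Wnt9a held low-level higher regions, 0, 6.67 and 9.37 against 1.60, 2.15 and 1.71 at Wnt2.

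Of the 18 receptor genes, 8 held no called region. Lrp6, the co-receptor of canonical signalling, had 0, 13.3 and 17.7 after DMM and 2.88, 5.01 and 3.42 in sham at its best-read of 5 higher regions. Lgr5, which binds R-spondins, had 0, 17.3 and 33.3 against 8.65, 7.15 and 5.64. Fzd5, a frizzled receptor, had a lower region 230 bases from a start with 31.4, 18.7 and 10.4 against 20.5, 50.8 and 44.1, and DMM library 1 overlapped sham. Of the inhibitors, Axin2, a feedback target of the pathway, had the largest fold of the 4 named regions, 0, 4.0 and 0 after DMM against 73.04, 10.01 and 10.9 in sham. Sham library 1 carried most of that difference, though the other sham libraries also lay above all DMM libraries. Sfrp2 and Rnf43, which block ligand and receptor, held higher regions, with 0, 14.7 and 17.7 against 5.45, 4.29 and 1.71 at Rnf43.

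The effectors gave 3 regions in which all 6 libraries separated, at Lef1, Prickle1 and Tcf7l2, all higher after DMM. Of all protein-coding genes 0.731% held such a higher region, but that share is not matched for length. The median gene length was 96.0 kb in this list and 17.2 kb over all genes. The list was also chosen with earlier results known, so no excess is read from these counts. Lef1, a DNA-binding partner of beta-catenin, was higher at chr3:131112361-131112560, with a centre at -331 relative to a start, with 31.4, 58.7 and 40.6 after DMM and 21.1, 20.7 and 27 in sham. The fold was 1.90, with 2.16 without DMM library 1 (limma log2 difference 1.07, SE 0.40, adjusted p 0.0336), and 1.0 was the adjusted p with all 6 libraries. Prickle1, a planar polarity protein, had 15.7, 37.4 and 32.3 against 9.93, 13.6 and 12.1. Tcf7l2, another beta-catenin partner, had 15.7, 9.34 and 23.95 against 3.84, 6.44 and 7.01. At Prickle1 and Tcf7l2, DMM library 1 rested on 1 read, and at Lef1 on 2.

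TGF-beta and BMP genes held higher calls in 7 of 15 ligands, 5 of 13 receptors and 12 of 31 modulators, and lower calls in 3, 1 and 3. No region of these 59 genes separated all 6 libraries, where few would at the shares of all genes (0.731% higher and 1.35% lower). Tgfb2, a ligand, had 0, 8.0 and 19.8 after DMM and 4.81, 3.58 and 2.22 in sham at a region near its start. Bmp7, a ligand that favours matrix synthesis, had 0, 6.67 and 15.6 against 1.28, 2.15 and 3.42. Tgfbr1, the signalling receptor, had 0, 10.7 and 9.37 against 1.92, 2.86 and 1.54. Smad3, which carries the signal to the nucleus, had 0, 8.0 and 17.7 against 2.88, 4.29 and 2.73. DMM library 3 was the higher of the DMM libraries in all but Tgfbr1 of these genes.

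The IGF, insulin and mTOR list held higher calls in 16 and lower calls in 3 of 35 genes. Ulk1, the kinase that starts autophagy, had a lower region that separated all libraries, with 31.4, 13.3 and 7.29 after DMM and 42.3, 35.1 and 42.4 in sham. Its fold in favour of sham was 2.30, with 3.87 without DMM library 1 (limma log2 difference -1.90, SE 0.44, adjusted p 0.0187). With all 6 libraries the limma adjusted p was 0.99994. Igf1r, the receptor of IGF1, was higher with 31.4, 53.4 and 55.2 against 14.7, 35.1 and 13.7, where sham library 2 lay above DMM library 1. Tsc2, a brake on mTOR, rested on DMM library 3, with 0, 8.0 and 27.1 against 1.92, 4.29 and 5.47.

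FGF genes held higher calls in 8 and lower calls in 5 of 19, and Notch genes in 8 and 1 of 21. Fgf14, an intracellular homologue of FGFs, had a lower region that separated all libraries, 31.4, 20.01 and 43.7 after DMM and 122, 65.1 and 46.3 in sham, though DMM library 3 and sham library 3 nearly met. Fgf2, a factor held in the pericellular matrix, was higher with 0, 17.3 and 41.7 against 7.69, 9.30 and 7.01. Jag1, a Notch ligand, had 0, 12.01 and 13.5 against 2.24, 4.29 and 2.39. Hey1, a Notch target, had 0, 5.34 and 14.6 against 2.88, 2.86 and 1.71.

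Hippo genes held the largest share of lower calls among the signalling lists, 7 of 20 genes (35.0%), with higher calls in 12. Their median length was 77.5 kb, and only Stk3 kept a lower region that separated the groups without DMM library 1. At Stk3, the kinase MST2, the values were 0, 1.33 and 1.04 after DMM and 46.5, 5.01 and 2.39 in sham, so sham library 1 carried the fold. Lats2, the kinase that phosphorylates YAP, was higher in every DMM library, with 31.4, 24.01 and 43.7 against 10.6, 18.6 and 12.1, a fold of 2.40. There DMM library 1 rested on 2 reads. Tead1, the DNA-binding partner of YAP, had 0, 28.02 and 30.2 against 4.48, 11.5 and 4.78.

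Hypoxia and VEGF genes held higher calls in 5 and a lower call in 1 of 16, and inflammation and NF-kB genes in 16 and 3 of 45, both near the shares of all genes. Egln3, an oxygen-sensing hydroxylase, had 0, 13.3 and 17.7 after DMM and 3.20, 2.15 and 1.37 in sham, or 6.93-fold without DMM library 1. Epas1, which encodes HIF-2alpha, had 0, 6.67 and 16.7 against 2.24, 4.29 and 2.22. Il1r1, the interleukin-1 receptor, had 15.7, 22.7 and 42.7 against 11.9, 15.7 and 14.4, and DMM library 1 was level with sham library 2. Tlr2, a receptor of matrix fragments and microbes, had a region centred at -142 relative to a start with 0, 12.01 and 12.5 against 2.24, 4.29 and 3.42. The cytokines Il1b, Il6 and Tnf held no call.

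Mechanosensor and calcium channel genes held higher calls in 10 and lower calls in 2 of 17, and integrins in 12 and 2 of 20, at median lengths of 51.8 and 73.5 kb. Trpv4, a channel by which chondrocytes sense load, had 31.4, 54.7 and 49.98 after DMM and 32.03, 35.8 and 28.9 in sham, with DMM library 1 inside the sham range. Piezo2, a stretch-gated channel, had 0, 30.7 and 21.9 against 11.9, 10.7 and 7.86. Ptk2, the focal adhesion kinase, had a well-read lower region, 235, 175 and 196 against 423, 229 and 290, where DMM library 1 lay just above sham library 2. Without that library limma gave a log2 difference of -0.71 (SE 0.22, adjusted p 0.0199), and with it the adjusted p was 0.99994. Itgb4, an epithelial integrin, separated all libraries but had a fold of only 1.12 without DMM library 1 (limma adjusted p 0.563).

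Of 27 genes of DNA methylation and demethylation enzymes, 6 held a higher and 2 a lower call (22.2% and 7.41%). Tet1 held 2 higher regions and Tet2 none. The better separated region of Tet1 had 0, 8.0 and 11.5 after DMM and 2.56, 2.15 and 2.05 in sham. The other had 0, 4.0 and 17.7 against 4.16, 3.58 and 1.88, where DMM library 2 lay inside the sham range and the log2 difference without DMM library 3 was -0.49. Tet3 held 1 lower region, with 0, 53.4 and 33.3 against 48.7, 48.6 and 51.8, and without DMM library 1 the fold was 1.15 (limma adjusted p 0.555). Tdg, the glycosylase that removes oxidised cytosines, had 0, 8.0 and 20.8 against 3.52, 4.29 and 4.44, and its log2 difference without DMM library 3 was -0.024. Zbtb38, a methyl-CpG binding factor, had 0, 44.02 and 28.1 against 8.33, 11.5 and 6.49.

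Of 39 Hox genes, short at a median of 3.74 kb, 6 held a higher and 5 a lower call (15.4% and 12.8%). Among all genes under 10 kb the shares were 6.90% and 2.35%. The 5 Hox genes with a lower call held only 4 lower regions between them, so a region was shared. Only 2 of the 5 kept a lower region that separated the groups without DMM library 1. Hoxc5 was higher in every DMM library, with 31.4, 38.7 and 49.98 after DMM and 22.7, 18.6 and 14.9 in sham, a fold of 2.14. DMM library 1 rested on 2 reads there. The limma adjusted p at Hoxc5 was 0.0258 without DMM library 1 and 0.99994 with all 6 libraries. The lower regions of Hoxa9 and Hoxa10, patterning factors of the limb and hind body, rested on sham library 1. It held 87.8 at Hoxa9 against 15.7 and 15.2 in the other sham libraries and 0, 13.3 and 8.33 after DMM. At Hoxa10 it held 70.2 against 11.5 and 12.5, and 0, 5.34 and 7.29.

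Of 35 imprinted genes, 9 held a higher and 3 a lower call, and each of the 3, Kcnq1, Slc22a3 and Snrpn, had a lower region that separated all libraries. Slc22a3, an organic cation transporter expressed from the maternal copy in placenta, had 0, 0 and 6.25 after DMM and 31.1, 20.7 and 35.9 in sham. Snrpn, a splicing protein made from the paternal copy, had 62.7, 98.7 and 90.6 against 176, 119 and 251. At Kcnq1, a potassium channel, all DMM libraries were at 0 and sham held 29.8, 2.86 and 3.25, so sham library 1 again stood alone. The shares of the list were 25.7% higher and 8.57% lower.

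Marker lists of cell types were read in the same way, though 5hmC in a gene body is not its expression and the lists cannot tell the makeup of the samples. Of 15 articular chondrocyte markers 3 held a higher call (Col9a1, Hapln1 and Fmod) and 2 a lower call (Col2a1 and Col11a2), and Acan, Sox9, Comp and Prg4 held none. Bone and osteoclast markers held 6 and 3 of 17, synovial and fibroblast markers 9 and 1 of 20, blood cell markers 12 and 3 of 30, skeletal muscle markers 4 and 4 of 28 and adipocyte markers 4 and 0 of 15. Endothelial markers held 13 and 6 of 20 (65% and 30%), at a median length of 43.0 kb.

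Cdh5 and Mmrn2 were the 2 endothelial genes with a lower region that separated all 6 libraries, and no higher region of the list did so. Cdh5, the cadherin of endothelial junctions, was lower with 0, 2.67 and 9.37 after DMM against 41.3, 17.9 and 33.2 in sham, 7.67-fold in favour of sham. Without DMM library 1 the limma log2 difference was -2.29 (SE 0.58, adjusted p 0.0187), and with all 6 libraries the adjusted p was 0.99994. Mmrn2, an endothelial matrix protein, was lower with 31.4, 20.01 and 12.5 against 54.8, 40.8 and 45.1. Tek, the angiopoietin receptor, was higher with 0, 30.7 and 101 against 17.3, 20.7 and 10.4, mainly in DMM library 3, without which its log2 difference was -0.070. Dmd, the dystrophin gene on X, had 0, 29.4 and 30.2 against 68.2, 52.9 and 124. The lower region of Gata1, a factor of red cells on X, rested on sham library 1 (62.5 against 10.01 and 11.8), with 15.7, 5.34 and 8.33 after DMM. The part of cell makeup in any of these results was not tested.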

How the data were processed

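Reduced representation 5hmC profiling libraries (RRHP, which keeps MspI fragments whose CCGG carries a glucosylated 5hmC) had been made from knee cartilage. The submitters' processing notes list HISAT2 2.1.0, Trim Galore 0.5.0, bcl2fastq 2.20.0, bedtools, SAMtools and the build mm10. No source used here names the region caller. The authors deposited, per the file headers, merged windows of 200 bases (regions of 200 to 2100 bases, median 260), the normalized count of each library joined in 1 cell, the group mean signal, and p-values with adjusted p-values from a test that is not named. Their largest window p was 0.0001, so a listed region had already passed that limit. In each library all values were whole multiples of 1 step within 0.02, and that multiple was taken as reads. A count test was not run, since the deposited values are scaled and the regions selected.

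From these values, direction was taken from the group means. A region counts as separated where every DMM library lies beyond every sham library. In a lower region where all sham libraries hold reads, a DMM library at 0 meets this without a read. Differences were tested with limma 3.58.1 (R 4.3.3, trend, Benjamini-Hochberg over all 43378 regions) on log2(normalized count + 1), which understates changes of low regions. The procedure was tested on simulated data drawn from the means and spread of the libraries other than DMM library 1. These data held no nearly empty library and no selection of regions, so the test does not cover those features. Exact permutation tests and binomial intervals used scipy 1.17.1 in Python 3.11.15, and 3 against 3 libraries cannot give a two-sided p under 0.1. Replicates are not stated to be separate animals, so p-values measure only the spread between these libraries. Gene bodies (49943 RefSeq genes) and start windows were from RefSeq GRCm38.p6, joined by an overlap of at least 1 base. Starts were used in 5 Mb bins where at least 60% of protein-coding genes had a window, which covered 88.1% of called regions. Chromosome 18 and parts of other chromosomes had no windows here.

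Members, gene lists and rules were chosen with earlier results of these data known. Named regions were, for each list, up to 4 genes, first those with a region that separates all libraries and then those separated without DMM library 1, by reads. To these came the regions with the most reads among the separated, the best-read promoter regions and all regions of the Tet genes. A few further regions of a list were named by this rule and not printed. The alternatives were another pseudocount, equal library totals, stricter limits, wider windows and leaving out libraries. The mutant groups and the background control were not analysed here, except for the sham libraries on X and Y.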

Additional observations from a re-analysis of the deposited data

How the results depend on the processing

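Without DMM library 1, DMM library 2, DMM library 3 or any 1 sham library, the count of regions with a higher mean lay between 27990 and 40646 and the lower between 2594 and 15228, the extremes of both coming without DMM library 3 and without DMM library 1. The limma counts lay between 0 and 32922 higher and between 7 and 811 lower, and without DMM library 1 and sham library 3 together the lower count was 0. The counts of separated regions lay between 432 and 34465 higher and between 852 and 1869 lower, and without both libraries the higher count was 34539. Lower regions in promoter windows lay between 107 and 188. Libraries rescaled to equal totals gave 4678 lower regions, 0 limma calls, and 238 higher and 1770 lower separated regions. Windows of 1 kb either side of a start held 970 higher and 313 lower regions. Among regions separated without DMM library 1 the percent lower was 15.8 on X, 2.22 on chromosomes 1 to 19 and 2.62 on Y, and 25 list genes held a lower region. Without sham library 3 too it was 15.9 on X and 2.52 on chromosomes 1 to 19. A minimum of 20 reads removed nothing, as the smallest region held 26.

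Of 161 named regions, 146 kept their direction without each library in turn. A region in which all 6 libraries separate cannot turn when 1 is left out. A higher region without a read in DMM library 1 cannot turn when that library is left out. Since regions were named by separation, this count is largely set by that choice. The other 15 turned without DMM library 3, and their log2 differences ranged from -0.42 to 1.52 at Col12a1, -0.045 to 1.84 at Cilp, -0.089 to 1.13 at Trps1, -0.19 to 1.70 at Hdac4, -0.0057 to 1.53 at Tgfb3, -0.29 to 1.19 at Deptor, -0.21 to 1.35 at Wwc2 and -0.22 to 1.54 at Itga2. They ranged from -0.024 to 1.60 at Tdg, -0.11 to 1.59 at Fmod, -0.18 to 1.47 at Cd55, -0.070 to 1.96 at Tek, -0.12 to 1.54 at Acsl1, -0.49 to 1.49 at Tet1 and -0.041 to 1.24 at Lamtor3-ps. Without DMM library 3 the DMM mean rests on DMM library 2 and the nearly empty DMM library 1. No paired analysis was possible because the joined values carry no replicate numbers. Depth limits the higher calls most, since a median of 46.0 reads over 6 libraries stands behind each.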

Other observations

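Well-read lower regions often came in sets with nearly the same reads in every library. Of 384 lower regions with at least 1500 reads, 147 had another more than 100 kb away whose reads differed by at most 10% in each of the 5 libraries other than DMM library 1, and 20 groups held 3 or more regions. The largest group had 10 regions on 9 chromosomes, among them regions in Mid1 and Tnfrsf11a. Its levels were 124 to 152 in DMM library 2, 111 to 127 in DMM library 3, 122 to 139 in sham library 1 and 0 in DMM library 1, and none of its regions separated all libraries. Whether such regions share reads of 1 sequence was not tested, and they are uncertain as separate results.

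The polyamine gene Amd1, its copy Amd2 and the pseudogenes Amd-ps3 and Amd-ps4 formed such a set in which all libraries separated at each of 4 regions. Sham library 1 held 628, 599, 608 and 582 reads there and DMM library 2 held 83, 75, 76 and 72. Igh, the antibody heavy chain locus, held 46 higher and 8 lower regions over 2.75 Mb. That is 16.7 higher and 2.91 lower calls per Mb, beside 14.5 and 1.01 over chromosome 12.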
